A study of Mus musculus with 6 samples.

Results

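Expression of 10 genes for heat shock proteins and their co-chaperones (Hspa1a, Hspa1b, Hspa8, Hsph1, Dnajb1, Dnaja1, Hsp90aa1, Hspd1, Hspe1 and Hspb1) was described in whole mouse liver, out of 21512 genes in the deposited table. The genes were taken by symbol, and all 10 were present. They were chosen because Hspa1b was more than 4-fold lower after anti-PD-1, so the group difference of these genes is given as a description. Counts of calls are given for them, but nothing is read from these counts. Bulk RNA was sequenced from livers of 6 C57BL/6J mice. All of them received a high-fat diet together with carbon tetrachloride over 12 weeks, which produces metabolic dysfunction-associated steatohepatitis (MASH) with fibrosis. During that period 3 mice were given anti-PD-1 antibody and 3 were given an isotype control antibody, every 3 days. No untreated or healthy liver was analysed here, so both groups carry the diet and the toxin. The titles name PD-1 for all 3 treated mice, whereas the treatment field of 2 of them gives another number after PD. Age and sex are not stated in the labels. Library depth was 15528364 to 20779319 reads. The hepatocyte marker Alb stood at 46646 to 69086 units in the 6 libraries.

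Heat shock proteins are molecular chaperones that bind unfolded or newly made proteins. The HSP70 proteins take hold of short unfolded stretches in an ATP-driven cycle. J-domain proteins such as those of Dnajb1 and Dnaja1 start that cycle, and the HSP110 protein of Hsph1 ends it by exchanging the nucleotide. HSP90 acts later on client proteins such as kinases and steroid hormone receptors. Under heat or other protein damage the transcription factor HSF1 binds heat shock elements, which are alternating repeats of GAA and TTC, and switches on Hspa1a, Hspa1b and other chaperone genes. In the liver these genes also follow daily changes of feeding and body temperature.

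Promoter sequences of 5 genes are shown, the near-identical Hspa1b and Hspa1a and 3 others with different arrangements of the element. Dnaja1 and Hspd1 also hold an element and are not printed. RefSeq windows of 300 bases on GRCm38.p6, which is an older build than the one of the submitters, were at hand for 8 of the 10 members. Capitals mark the 2-unit heat shock elements GAANNTTC and TTCNNGAA. Both forms read the same on either strand.
Hspa1b promoter, chr17:34959189-34959488, minus strand: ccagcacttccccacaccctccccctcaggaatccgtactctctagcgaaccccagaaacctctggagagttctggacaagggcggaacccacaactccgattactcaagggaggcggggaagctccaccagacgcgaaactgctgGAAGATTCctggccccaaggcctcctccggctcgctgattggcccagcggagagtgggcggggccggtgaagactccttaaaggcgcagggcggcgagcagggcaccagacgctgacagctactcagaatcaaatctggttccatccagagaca
Hspa1a promoter, chr17:34972107-34972406, minus strand: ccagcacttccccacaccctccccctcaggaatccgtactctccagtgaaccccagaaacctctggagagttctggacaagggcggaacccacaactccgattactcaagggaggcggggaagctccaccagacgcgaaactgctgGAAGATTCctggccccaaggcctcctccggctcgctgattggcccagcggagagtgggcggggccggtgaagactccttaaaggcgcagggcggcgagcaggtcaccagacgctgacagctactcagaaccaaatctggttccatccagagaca
Hsph1 promoter, chr5:149636287-149636586, minus strand: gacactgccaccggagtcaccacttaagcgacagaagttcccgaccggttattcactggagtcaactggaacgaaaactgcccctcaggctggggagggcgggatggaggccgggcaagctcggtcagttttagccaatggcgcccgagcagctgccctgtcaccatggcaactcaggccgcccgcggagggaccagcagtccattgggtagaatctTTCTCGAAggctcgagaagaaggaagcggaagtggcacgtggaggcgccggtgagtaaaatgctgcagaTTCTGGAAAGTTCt
Hspe1 promoter, chr1:55087898-55088197, plus strand: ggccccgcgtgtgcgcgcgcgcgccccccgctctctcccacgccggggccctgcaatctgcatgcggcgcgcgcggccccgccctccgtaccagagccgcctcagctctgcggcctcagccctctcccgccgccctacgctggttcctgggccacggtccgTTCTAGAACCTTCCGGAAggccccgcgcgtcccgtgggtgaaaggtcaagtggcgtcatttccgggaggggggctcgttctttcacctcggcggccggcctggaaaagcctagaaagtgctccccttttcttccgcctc
Hspb1 promoter, chr5:135887669-135887968, plus strand: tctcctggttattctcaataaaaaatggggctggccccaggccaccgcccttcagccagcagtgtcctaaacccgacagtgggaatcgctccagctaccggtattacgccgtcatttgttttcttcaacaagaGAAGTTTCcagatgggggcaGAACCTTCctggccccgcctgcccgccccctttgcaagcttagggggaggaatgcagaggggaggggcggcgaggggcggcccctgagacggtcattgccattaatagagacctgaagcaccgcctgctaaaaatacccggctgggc
The Hspa1b and Hspa1a windows were 98.7% identical and carried the same element at the same place, beginning 104 bases before the start. They differed by 4 substitutions, written with the Hspa1b base first and counted from 1 at the 5′ end of the window, namely T44C, C47T, G249T and T276C. None of these lay in the capitals. The Hspe1 window overlapped a window of Hspd1 by 285 bases, since both genes start from 1 shared region and are read in opposite directions. Of the 13 windows of the 8 members, 8 held a 2-unit element, against 15.1% of 32851 promoter windows of all genes. The 3-unit element, GAANNTTC continued by NNGAA, searched on both strands and overlapping the 2-unit forms, was found in 4 of the 13 windows and in 0.603% of all windows. These 4 belonged to Hsph1, Hspd1 and Hspe1, and neither window of Dnajb1 held any of these letters' patterns. Several windows overlap each other, so they are not independent. The 2 Hsph1 windows are offset by 21 bases, and the Hspd1 and Hspe1 matches are the same stretch read on opposite strands. The 3-unit match of Hsph1 lay after the start in both of its windows. A match of letters does not show that a factor binds there.

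Levels are given in the deposited unit, which is CPM (reads of a gene relative to the size of its library) with library sizes scaled by a trimmed-mean factor, and called units here. Per kilobase of the longest protein-coding transcript, Hspa8 was the most abundant member, at 305 ± 8.28 units per kilobase after anti-PD-1 and 352 ± 38.4 in isotype controls (SD, n = 3 each). Hspd1 followed at 175 ± 24.6 after anti-PD-1 and 183 ± 19.1 in controls, and Hspe1 at 89.2 ± 8.15 after anti-PD-1 and 106 ± 29.2 in controls. Next came Hsp90aa1 at 54.5 ± 6.14 after anti-PD-1 and 72.2 ± 9.06 in controls, and Dnaja1 at 27.4 ± 1.49 after anti-PD-1 and 30.1 ± 2.38 in controls. Hsph1, Hspb1 and Dnajb1 lay lower, with means of 7.17, 4.81 and 3.07 per kilobase after anti-PD-1 and 8.66, 6.37 and 3.95 in controls. The stress-inducible HSP70 genes stood last. Hspa1b was at 0.523 ± 0.290 per kilobase after anti-PD-1 and 2.28 ± 1.05 in controls, and Hspa1a at 0.467 ± 0.186 after anti-PD-1 and 0.465 ± 0.132 in controls. In control livers the ranges of Hsph1 (6.97 to 11.4) and Hspb1 (5.34 to 7.84) overlapped, while those of the other neighbours in this order did not. In anti-PD-1 livers only the ranges of Hspa1b and Hspa1a overlapped (0.332 to 0.857 and 0.337 to 0.680). The lengths came from the GENCODE annotation of GRCm38 and need not be those of the submitters' annotation, so this order is approximate.

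**Figure D1:**
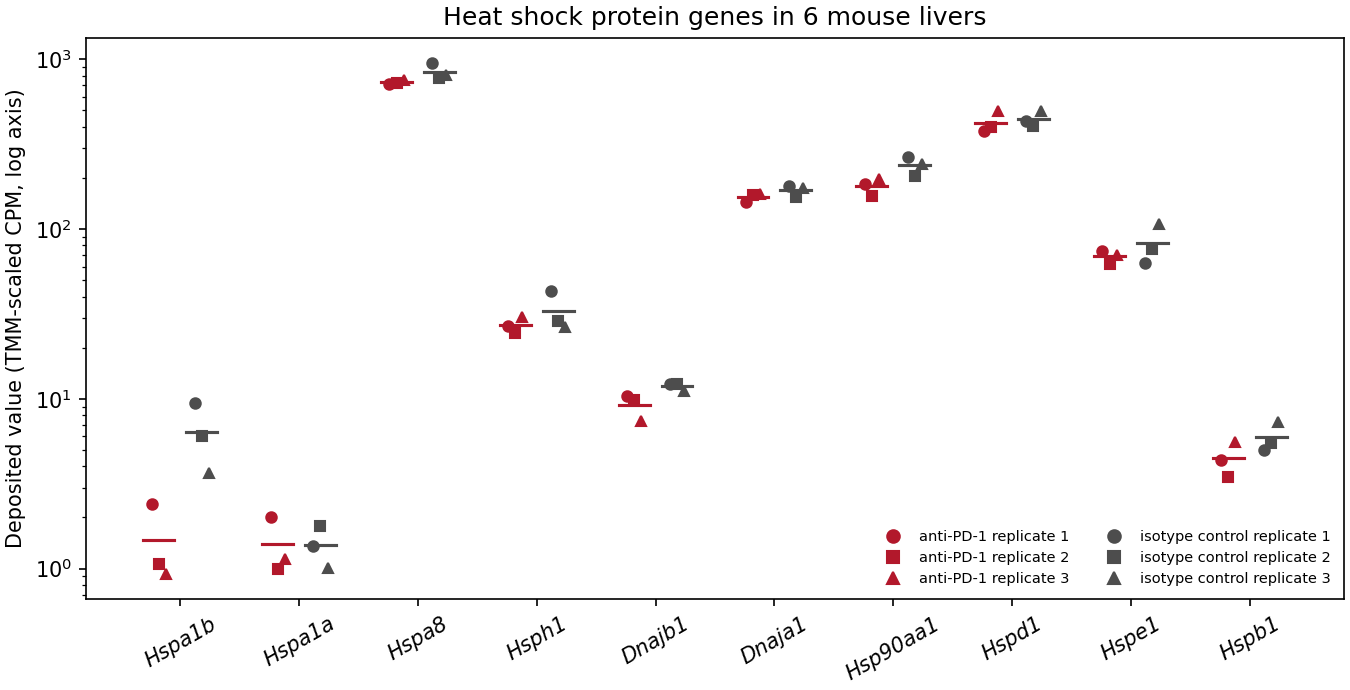
Deposited value (log axis) of the 10 genes in each library, with anti-PD-1 in red left of isotype control in grey, symbols for replicates and bars for group means. Hspa1b is the gene whose groups lie farthest apart, with 0.931 to 2.40 units after anti-PD-1 and 3.67 to 9.50 in controls, while most other genes lie close together.

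The inducible HSP70 gene Hspa1b was 4.36-fold lower after anti-PD-1 as a ratio of means, and its near copy Hspa1a did not show this. Hspa1b had 2.40, 1.07 and 0.931 units in the anti-PD-1 livers, against 9.50, 6.01 and 3.67 units in the isotype control livers. Every anti-PD-1 library lay below every control library, and the log2 fold change on log2(value + 0.5) was -1.79 ± 0.39 (SE). The counts behind these values were 50, 16 and 18 reads after anti-PD-1 and 176, 111 and 73 reads in controls. Among all tested genes, 10 had a more negative log2 fold change. Hspa1b was chosen for its fall in this contrast, so a place near that end was fixed by the choice. The gene of the 10 nearest to the 4-fold rule on the other side was Hsp90aa1, 1.32-fold lower, with Hspb1 at the same ratio.

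Hspa1a had 2.02, 0.999 and 1.14 units after anti-PD-1, against 1.35, 1.79 and 1.01 units in controls. The highest and the lowest of these 6 values both came from anti-PD-1 livers, and the log2 fold change was -0.01 ± 0.29 (SE). These values rest on only 15 to 42 reads per library. Hspa1b therefore made up 54.3, 51.6 and 45.0% of the reads of the pair after anti-PD-1, with 95% Wilson intervals of 44.2 to 64.1, 34.8 to 68.0 and 30.7 to 60.2%. In controls it made up 87.6, 77.1 and 78.5%, with intervals of 82.3 to 91.4, 69.6 to 83.2 and 69.1 to 85.6%. The intervals cover counting error only.

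The division of reads between these genes is uncertain. Of all 100-base windows of the annotated Hspa1b transcript, 49.9% occur unchanged in a transcript of Hspa1a. How the submitters' counting divided reads from these stretches is not given in the sources used here. With the values of both genes added, the anti-PD-1 livers had 4.42, 2.06 and 2.07 units and the control livers 10.8, 7.79 and 4.68 units. The groups still did not overlap, and the summed level was 2.73-fold lower after anti-PD-1 (log2 fold change -1.30 ± 0.36, SE).

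**Figure D2:**
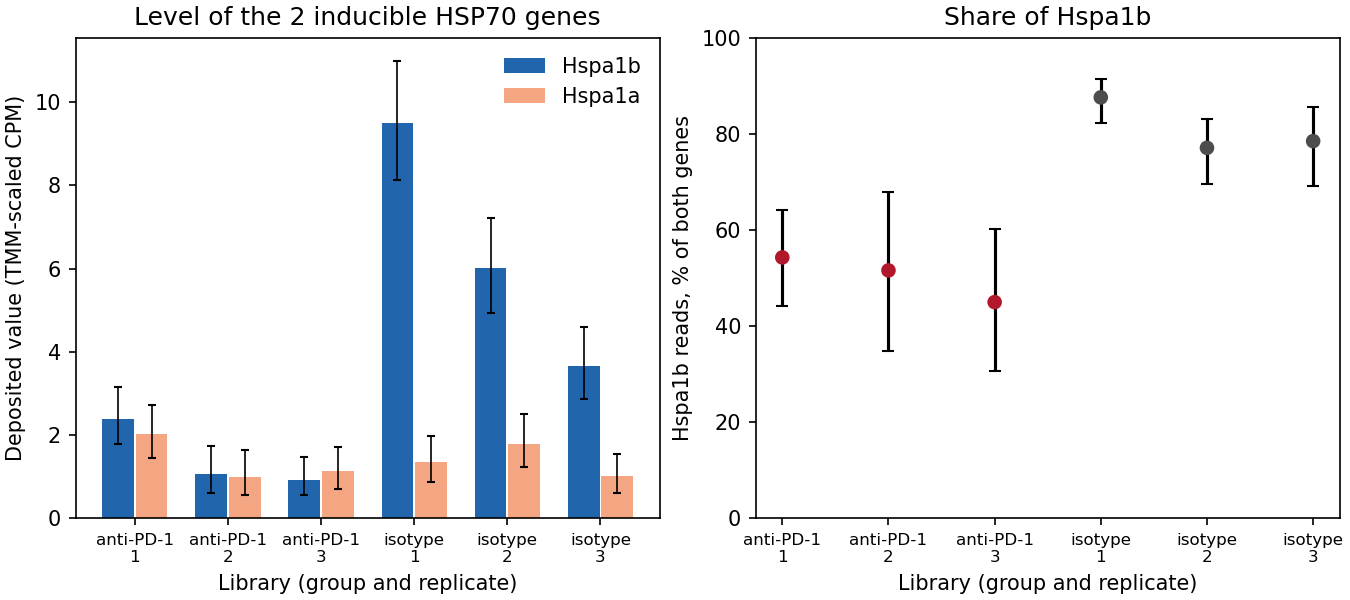
Left, deposited value of Hspa1b (blue) and Hspa1a (orange) in each library with exact 95% Poisson intervals of the read counts. Right, share of Hspa1b in the reads of both genes with Wilson intervals, 45.0 to 54.3% in the anti-PD-1 livers (red) and 77.1 to 87.6% in the isotype control livers (grey).

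The constitutive HSP70 gene Hspa8, which serves protein folding and clathrin uncoating in unstressed cells, had 713, 726 and 752 units after anti-PD-1, against 946, 774 and 806 units in controls. The groups did not overlap, but the gap between the highest anti-PD-1 liver and the lowest control was small, and the mean was 13.3% lower. Hsph1, whose HSP110 protein exchanges the nucleotide of HSP70, had 26.9, 24.4 and 30.4 units after anti-PD-1 and 43.3, 28.9 and 26.5 units in controls. Its groups overlapped, and isotype control replicate 1 alone lay far above the rest. Without that library the log2 fold change of Hsph1 was -0.03, against -0.24 ± 0.19 (SE) with it. Leaving it out likewise brought Hspa8 to -0.11, against -0.20 ± 0.13.

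Of the J-domain genes, Dnajb1, the partner of stress-induced HSP70, had 10.4, 9.79 and 7.35 units after anti-PD-1, against 12.2, 12.2 and 11.1 units in controls. The groups did not overlap and the log2 fold change was -0.36 ± 0.16 (SE). Anti-PD-1 replicate 3 was the lowest library, and without it the value was -0.22. Dnaja1, a farnesylated J-domain protein that works with Hspa8, had 145, 158 and 160 units after anti-PD-1 and 179, 154 and 174 in controls. Its groups overlapped through isotype control replicate 2, and the log2 fold change was -0.13 ± 0.10.

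Hsp90aa1, the inducible cytosolic HSP90, had 183, 157 and 196 units after anti-PD-1, against 264, 205 and 241 units in controls. No anti-PD-1 liver reached the lowest control, and the log2 fold change was -0.40 ± 0.13 (SE), or a mean 24.5% lower. It stayed between -0.50 and -0.31 under the alternatives tried. Its constitutive partner Hsp90ab1, which is not among the 10 genes, had 606, 605 and 713 units after anti-PD-1 and 751, 737 and 823 units in controls, also with no overlap (log2 fold change -0.27 ± 0.12, limma adjusted p = 0.473).

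The mitochondrial chaperonin genes work as a pair. Hspd1, which encodes the HSP60 ring, had 380, 399 and 492 units after anti-PD-1 and 432, 405 and 495 in controls. Hspe1, which encodes its HSP10 lid, had 74.4, 62.1 and 70.6 units after anti-PD-1 and 63.1, 76.7 and 107 in controls. The groups overlapped for both genes, with log2 fold changes of -0.07 ± 0.14 for Hspd1 and -0.22 ± 0.19 for Hspe1 (SE). The lowest Hspe1 library of the controls was replicate 1, the library in which Hspa1b and Hsph1 were highest, and without it the log2 fold change of Hspe1 was -0.40. Without isotype control replicate 3, the highest library, it was -0.02. The small heat shock protein gene Hspb1, which encodes an ATP-independent holdase, had 4.37, 3.46 and 5.59 units after anti-PD-1 and 4.96, 5.52 and 7.29 units in controls. Its groups overlapped, and the log2 fold change was -0.37 ± 0.22, with -0.53 to -0.22 when single libraries were left out.

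**Figure D3:**
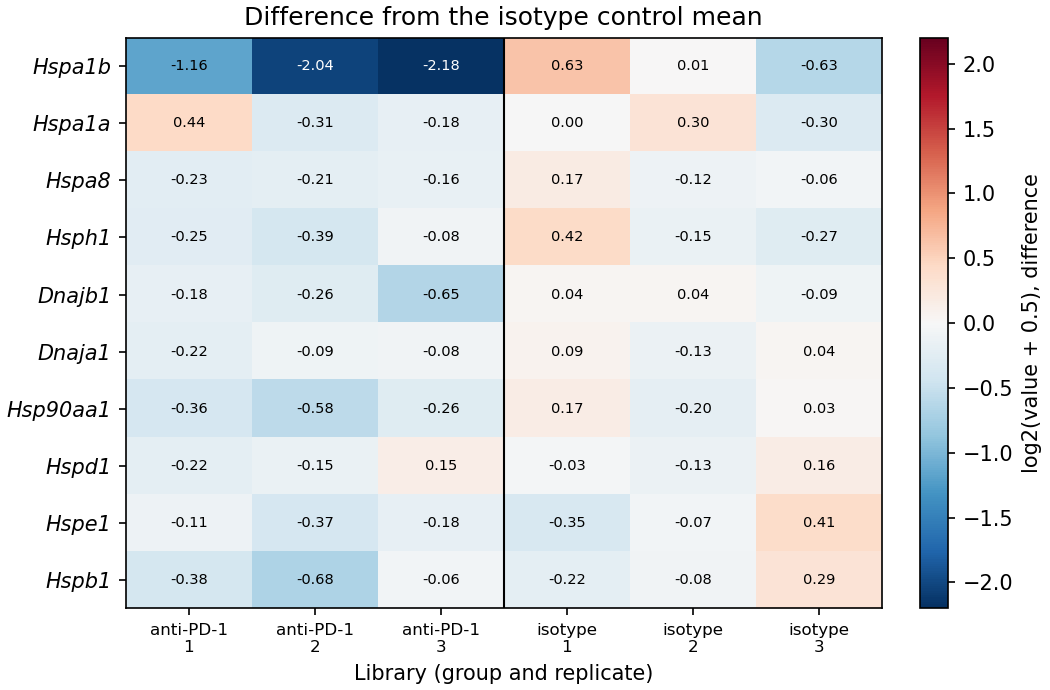
Difference of each library from the isotype control mean on the log2(value + 0.5) scale, for anti-PD-1 (left) and isotype control (right) libraries. Hspa1b lies 1.16 to 2.18 below that mean in the anti-PD-1 livers (differences of -1.16, -2.04 and -2.18), and the other 9 genes stay within -0.68 and 0.44 in all libraries.

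All 10 genes had a negative log2 fold change by limma, with a median of -0.23, though Hspa1a was at 0.03 with edgeR and with DESeq2. By comparison, 49.5% of the 13990 tested genes were negative and the median over all of them was 0.003. In 4 of the 10 genes (Hspa1b, Dnajb1, Hspa8 and Hsp90aa1) every anti-PD-1 liver lay below every control, which was so for 9.98% of all tested genes. All 10 passed the filter of 1 unit in 3 libraries, Hspa1b with 3 control livers and 2 anti-PD-1 livers at or above it. Past the adjusted threshold of 0.05 the limma fit across all genes placed 0 of the 10, against 0% of all tested genes called lower and 0.00715% called higher. At an unadjusted p under 0.05 it placed 2 of the 10 lower (6.24% of all tested genes). With edgeR 0 of the 10 passed, with 2 at an unadjusted p under 0.05 (5.95% of all genes). With DESeq2 1 passed, Hspa1b (0.779% of all genes called lower), and with the replicate number as a block 1 passed, again Hspa1b (0.0929%). Since Hspa1b was chosen on this contrast, nothing is read from these counts.

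The wider chaperone network was given by 8 further lists, with 121 of 128 genes tested. None of the 121 passed the limma threshold (0.00715% of all tested genes did, in either direction), 4 were higher and 7 lower at an unadjusted p under 0.05 (5.04 and 6.24% of all genes), and edgeR called 0. DESeq2 called 1 of the 121, Bag3, lower, which is close to the share of all genes it called lower (0.779%). Groups did not overlap in 3 genes that were higher (Ubb, Unc45a and Dnajb5) and 13 that were lower after anti-PD-1, against 7.13 and 9.98% of all tested genes. The median log2 fold change of the 121 genes was -0.01, against 0.003 over all tested genes.

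Among other known HSF1 targets 14 of 19 tested genes were negative (median -0.16), against 49.5% of all tested genes. At an unadjusted p under 0.05 by limma 1 was higher and 2 were lower, against 5.04 and 6.24% of all tested genes. Bag3, which links HSP70 to selective autophagy, had 15.3, 13.4 and 13.3 units after anti-PD-1, against 28.3, 24.8 and 19.7 units in controls. The groups did not overlap, and the log2 fold change was -0.76 ± 0.15 (SE, limma adjusted p = 0.218, DESeq2 adjusted p = 0.00966). Hspb8, the small heat shock protein that works with Bag3, lay in the other direction at 177, 255 and 302 units after anti-PD-1 and 132, 145 and 195 in controls, with overlapping groups (0.62 ± 0.22, limma adjusted p = 0.369). Hspa4l, an HSP110 relative, had a mean of 44.4 ± 2.17 units after anti-PD-1 and 54.7 ± 4.76 in controls (limma adjusted p = 0.363). The HSP70-HSP90 adaptor gene Stip1 had means of 44.8 ± 1.88 after anti-PD-1 and 50.4 ± 6.16 in controls, and Hspa4, another HSP110 relative, had 141 ± 10.3 after anti-PD-1 and 147 ± 9.54 in controls (SD, n = 3 each).

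The heat shock factors differed in sign. Hsf1 had 12.1, 16.7 and 12.4 units after anti-PD-1 and 9.44, 12.8 and 9.35 in controls, with overlapping groups (0.37 ± 0.18, limma adjusted p = 0.503). Hsf2, a second factor that can bind the same elements, had 18.5, 17.6 and 17 units after anti-PD-1, against 26.2, 24.2 and 22.5 units in controls. Its groups did not overlap (-0.44 ± 0.11, limma adjusted p = 0.255, DESeq2 adjusted p = 0.108). Hsf4 was at 2.90 ± 0.533 after anti-PD-1 and 3.36 ± 0.0598 in controls, and Hsbp1, which binds HSF1, at 49.8 ± 3.57 after anti-PD-1 and 49.3 ± 3.49 in controls (SD, n = 3 each).

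Of the other classes, those with 13 or more tested genes had medians between -0.02 and 0.02. Of 19 co-chaperones of HSP70 and HSP90 12 were positive (median 0.02), led by Bag2, a nucleotide exchange factor, at 5.62 ± 1.49 units after anti-PD-1 and 2.79 ± 1.65 in controls (1.01 ± 0.40, limma adjusted p = 0.408). Without isotype control replicate 1, in which Bag2 was lowest, its log2 fold change was 0.57. Of 29 other J-domain genes 16 were negative (median -0.02). The most separated of them, Dnajb2, a ubiquitin-binding J-domain protein, had 30.6, 29.0 and 32.6 units after anti-PD-1, against 41.0, 43.3 and 39.7 units in controls (-0.42 ± 0.10, limma adjusted p = 0.244, DESeq2 adjusted p = 0.0597).

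The 21 chaperones of the endoplasmic reticulum had a median of -0.01. None had groups that did not overlap, against 7.13% (higher) and 9.98% (lower) of all tested genes. Hspa5, the HSP70 of that compartment, had 424, 557 and 555 units after anti-PD-1 and 661, 378 and 464 in controls, and Hsp90b1 had means of 791 ± 89.0 after anti-PD-1 and 764 ± 67.3 in controls (SD, n = 3 each). Of 13 mitochondrial chaperones and proteases 7 were positive (median 0.01), with the mitochondrial HSP70 gene Hspa9 at 600 ± 95 after anti-PD-1 and 597 ± 55.6 in controls. Grpel2, a nucleotide exchange factor for it, was at 31.7 ± 0.747 after anti-PD-1 and 40.9 ± 5.86 in controls (limma adjusted p = 0.355). The 14 genes of the TRiC chaperonin and prefoldin had a median of -0.01, with Cct2 at 109 ± 11.3 after anti-PD-1 and 98.6 ± 8.89 in controls. Only 2 of 5 other small heat shock protein genes with a value passed the filter, both negative with a median of -0.29, and Hspb6, a small heat shock protein of muscle, was at 2.76 ± 0.851 after anti-PD-1 and 4.07 ± 0.581 in controls (limma adjusted p = 0.476).

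**Figure D4:**
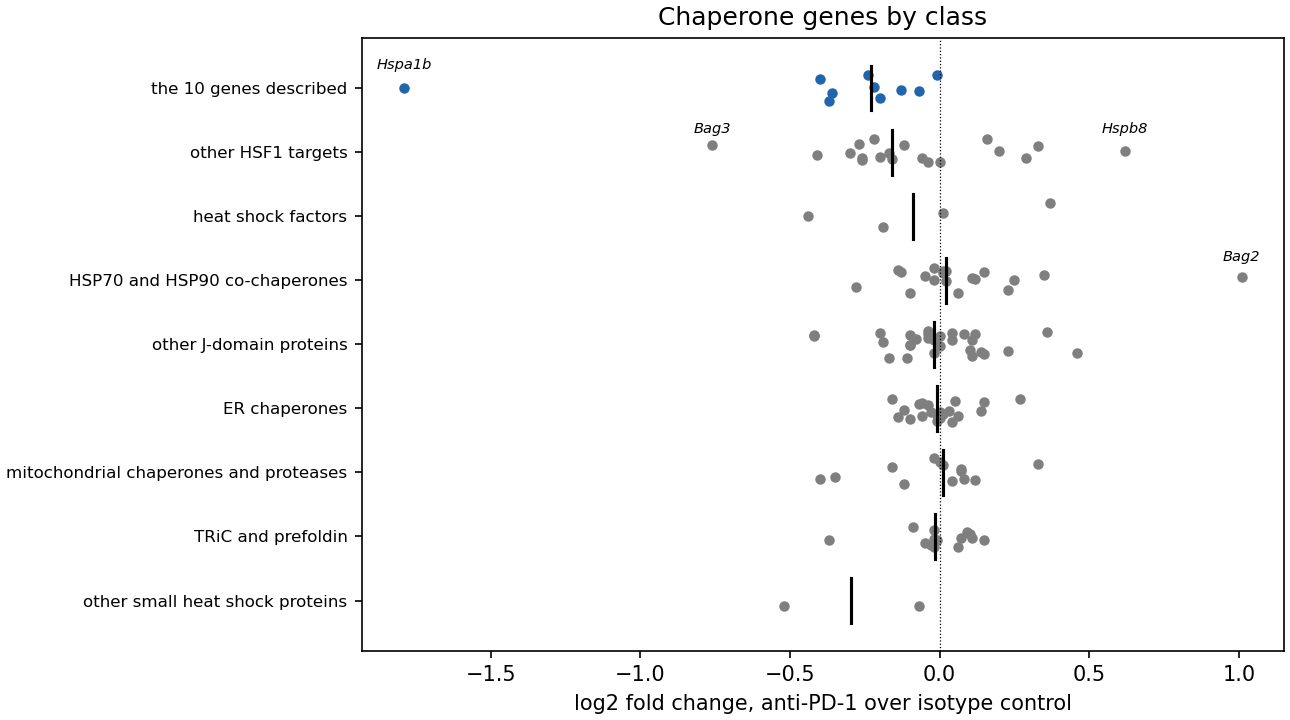
Log2 fold change, anti-PD-1 over isotype control, of each tested gene (points) by chaperone class, with the class median as a bar. The 10 genes described here (blue) have a median of -0.23 and other HSF1 targets -0.16. The class of heat shock factors, which includes the HSF1-binding Hsbp1 (4 genes), is at -0.09. The other small heat shock proteins (2 genes) are at -0.29 and the 5 remaining classes between -0.02 and 0.02.

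Isotype control replicate 1 stood apart from the other libraries. It held the highest value of 6 of the 10 genes (Hspa1b, Hsph1, Dnajb1, Dnaja1, Hspa8 and Hsp90aa1). Of 14 clock genes it held the lowest value of 9 and the highest value of 3 (Clock, Npas2 and Cry1). Dbp, a clock output factor, was at 46.4, 82.8 and 63.7 units after anti-PD-1 and 13.1, 64.9 and 71.4 in controls, so replicate 1 was far below all others. Without this library the median of the 10 genes was -0.22, and the Hspa1b value was -1.48. Cirbp, a cold-inducible RNA-binding protein, had 14.6, 19.2 and 21.4 units after anti-PD-1 and 6.58, 10.7 and 16.4 in controls (limma adjusted p = 0.414). Rbm3, another of that kind, had 51.0, 46.3 and 43.2 after anti-PD-1 and 34.4, 32.0 and 45.7 in controls (limma adjusted p = 0.453). Among controls the library order of Cirbp was the reverse of that of Hspa1b, while that of Rbm3 was not. In the anti-PD-1 livers Cirbp again ran in the reverse order, but Rbm3 ran in the same order as Hspa1b. Immediate early genes, which respond to handling among other stimuli, summed to 860 to 1096 units after anti-PD-1 and 338 to 802 in controls. The lowest sum was in isotype control replicate 1. The sum is weighted to abundant genes, with Btg2 alone at means of 385 after anti-PD-1 and 138 in controls. Of these 15 genes 13 had a positive log2 fold change, and 2, Egr1 and Dusp1, a negative one (49.5% of all tested genes were negative). The part that clock, cold-inducible or immediate early genes' shifts have in the heat shock values was not tested.

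Cell markers moved with the groups too, and in bulk RNA fewer cells of a type cannot be told apart from less RNA per cell. All 6 Kupffer cell markers had a negative log2 fold change (49.5% of all tested genes did), though Cd5l was only at -0.02 ± 0.33 (SE). Without isotype control replicate 1, or without anti-PD-1 replicate 3, 5 of the 6 were negative. The summed level of the 6 markers was 148 to 197 units after anti-PD-1 and 153 to 358 in controls, highest in isotype control replicate 1. The scavenger receptor Cd163 had 1.44, 0.20 and 0.31 units after anti-PD-1 and 17.3, 6.60 and 6.38 in controls (limma adjusted p = 0.129, DESeq2 adjusted p = 3.67e-06). By limma and edgeR 0 of the 6 Kupffer cell markers passed (each called 0% of all genes lower). At an unadjusted p under 0.05 limma had 5 lower (6.24% of all genes) and edgeR 4 (5.95%). DESeq2 called 3 lower, Cd163, Timd4 and Marco (0.779% of all genes). None of the Kupffer or T cell markers was at 0 in any library. Timd4 passed the filter only through the 3 control livers, which fixed its direction. T cell markers summed to 32.9, 5.86 and 6.83 units after anti-PD-1 and 3.18, 2.49 and 1.91 in controls. Of these markers 2 of 6 passed the filter, Cd3e and Cd8a. Both passed only through the 3 anti-PD-1 livers, so their direction was fixed by the filter and nothing is read from their calls. DESeq2 called both higher (against 1.05% of all genes), while limma and edgeR called 0. At an unadjusted p under 0.05 both were higher by limma (5.04% of all genes) and by edgeR (794 of 13990 genes). Anti-PD-1 replicate 1 was highest on all 6 T cell markers and all 6 monocyte and macrophage markers, and it also had the highest Hspa1b value of its group. Without it the log2 fold change of Hspa1b was -2.11, and without both libraries numbered 1 it was -1.80. The hepatocyte marker sum was 64603 to 77582 units after anti-PD-1 and 65705 to 90882 in controls. The summed ranges of B cell, neutrophil, endothelial, cholangiocyte and red blood cell markers overlapped between groups. Stellate cell markers summed to 510 to 590 units after anti-PD-1 and 454 to 500 in controls. The part of these cells in the heat shock values was not tested.

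Genes whose pattern over the 6 libraries was most like that of Hspa1b were sought among 10157 genes averaging at least 5 units, by Pearson r on the log2 scale. The 6 highest were Zfp60 (r = 0.997), Zfp825 (0.996), Tsc22d1 (0.992), Zfp426 (0.992), Zfp638 (0.991) and Rnf135 (0.990), and 116 genes exceeded 0.95. Zfp60, a zinc finger gene, had 4.85, 2.93 and 3.05 units after anti-PD-1, against 13.8, 9.52 and 6.89 units in controls. Tsc22d1 had 48.7, 39.7 and 38.1 units after anti-PD-1, against 104, 77.6 and 62.1 units in controls. Like Hspa1b, both were highest in isotype control replicate 1 and, within the treated group, in anti-PD-1 replicate 1. This follows from choosing them by r over the same 6 libraries. Since likeness to Hspa1b carries the group difference with it, no test between the groups is given for these genes. Within the 10 genes the r with Hspa1b was 0.87 for Dnajb1, 0.78 for Hspa8 and for Hsp90aa1 and 0.66 for Hsph1. It was 0.45 for Dnaja1, 0.37 for Hspa1a, 0.35 for Hspb1, 0.13 for Hspe1 and -0.10 for Hspd1. These values describe 6 libraries that share the group difference and are given with no test.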

How the data were processed

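RNA of 6 livers was sequenced after ribosomal RNA depletion with a directional kit, per the labels' protocols. The build was GRCm39, and edgeR, Bowtie2, RSEM 1.3.0 and Trimmomatic 0.38 were used in roles not given, per the submitters' processing notes. The authors deposited 1 normalized signal value per gene and library. In 100% of entries it was a whole multiple of the value of 1 read (tolerance 0.001 read), so reads were recovered, and trimmed-mean factors recomputed from them equalled the implied ones to 3 decimals. Whether these are observed or rounded estimated reads cannot be seen. A count of 3 reads, the limit for a gene not seen, corresponds to 0.144 to 0.200 units, for counting error only. Symbols matched 21407 identifiers.

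Genes with at least 1 unit in 3 libraries (13990) were tested with limma 3.58.1 (R 4.3.3, intensity trend, two-sided, Benjamini-Hochberg over all tested genes) on log2(value + 0.5), which understates changes of low genes. edgeR 4.0.16 and DESeq2 1.42.0 used the recovered reads. The fits across genes were tested on simulated data. The p-values set the group difference against the spread between these mice. The labels do not say how mice were housed or processed, so a cage or batch difference between groups cannot be told apart from the treatment. The members, lists and naming rule were chosen with earlier results of these data known. Named genes are the 10 members, set examples and the 3 genes of smallest unadjusted p per chaperone list. Also named are the heat shock factors with Hsbp1, the cold-inducible genes and the 6 most like Hspa1b. Only a part of these is printed. Ubb and the clock and cell markers named were chosen after their values were seen. The replicate field of the labels runs from 1 to 3 in both groups, but the mice are different animals (titles 20, 21 and 22 for anti-PD-1 and 16, 17 and 18 for controls), and no label ties them. Deviations of same-numbered libraries correlated at 0.15, 0.13 and 0.25, each over 0.1, the limit of the rule used here. Under that rule the number entered as a block in an alternative limma fit. The main limma fit had no block and treated the mice as unpaired. These correlations are small and no label ties the mice, so a pairing is not established. Results named as from the block rest on these values alone, not on the design.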

Additional observations from a re-analysis of the deposited data

How the results depend on the processing

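For the 10 genes 159 of 159 values under the alternatives lay within 1 SD of the replicates from the value given. With 3 libraries per group, leaving out 1 moves a group mean by less than its SD. Such fits could therefore hardly fail this rule, and nothing is read from the count. Within it, Hsph1 ranged from -0.38 to -0.02 and Hspe1 from -0.45 to -0.02. The Hspa1b log2 fold change ranged from -2.11 (without anti-PD-1 replicate 1, and likewise without isotype control replicate 3) to -1.24 (pseudocount 2), and was -1.30 with Hspa1a added. The sign was negative under every alternative for 8 of the 10 genes, the exceptions being Hspa1a (-0.24 to 0.14) and Hspd1 (-0.18 to 0.01). With the filter of 5 units Hspa1a and Hspa1b were not fitted. Of the 10 genes 8 remained in that fit, all negative.

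Over all genes the counts of 1 higher and 0 lower by limma (705 and 873 at an unadjusted p under 0.05) became 0 and 0 with edgeR (794 and 832 unadjusted), 147 and 109 with DESeq2 (874 and 724 unadjusted), and 27 and 13 with the replicate block. Leaving out 1 library gave 0 to 24 higher and 0 to 6 lower, with 24 and 6 without anti-PD-1 replicate 1, 0 higher without anti-PD-1 replicate 3 and 2 higher without isotype control replicate 2. Without both libraries numbered 1, chosen after seeing the data, the counts were 97 and 36. The cause of these shifts was not tested. The replicate block changed the call of 1 of the 10 genes, Hspa1b, and of no other chaperone gene named. Nothing is read from the Hspa1b call, since the gene was chosen on this contrast. The fit with the block also called the Kupffer cell marker Cd163 (limma adjusted p = 0.0298), a call that rests on a pairing no label gives.

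Bag3 was called by DESeq2 (-0.78, adjusted p = 0.00966) and by no other alternative (limma and edgeR adjusted p = 0.0834 to 0.680 over the others). Signs turned for genes near 0. Hspa5 (0.06) was -0.00 with quantile normalization and -0.12 to 0.28 over the single left-out libraries. Hsp90b1 (0.05) was -0.04 with quantile normalization and -0.03 to 0.13. Hspa9 (-0.00) was 0.01 with edgeR, 0.02 with DESeq2 and -0.10 to 0.13. Hsbp1 (0.01) was -0.01 with plain CPM, -0.02 with quantile normalization and -0.04 to 0.05. Hspb11 (-0.07) was -0.23 to 0.07. Hspa9 was 0.12 without both libraries numbered 1. Depth limits Hspa1a and Hspa1b, which had as few as 15 and 16 reads in a library.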
